A study of Homo sapiens with 6 samples.

Results

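Axon guidance genes of 4 ligand and receptor systems were compared between parental H526 cells and H526 cells made resistant to onvansertib. They were chosen by symbol among the 20026 protein-coding genes of the deposited table, as the Eph receptors and ephrins, the semaphorins with their plexins and neuropilins, the slits and robos, and the netrins with their receptors *DCC*, *NEO1* and *UNC5A* to *UNC5D*. The rule found 75 genes, of which 59 had a mean normalized value of at least 10 over the 6 libraries and were tested. The prefix UNC5 also took in *UNC50* and *UNC5CL*, which are not counted here among the netrin receptors.

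H526 is a small cell lung cancer line, and onvansertib is an inhibitor of the mitotic kinase PLK1. Resistant cells were grown first in 10 nM and, as the drug was raised whenever they proliferated normally, at last in 75 nM onvansertib over one year. The medium of both groups was RPMI-1640 plus serum, and RNA was collected 3 separate times from each, giving parental libraries 1 to 3 and resistant libraries 7 to 9. The paper and the sample titles do not say whether onvansertib was present when RNA was collected. Acquired resistance and current exposure to the drug therefore cannot be told apart here. The labels name 1 parental and 1 resistant line and do not say whether the resistant line is a clone, so that p-values here measure the spread between harvests of 1 line, which may be technical.

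Axon guidance cues are secreted or membrane-bound proteins that attract or repel the growing tips of neurons, and many are also used by epithelial, vascular and tumor cells to set adhesion and movement. Ephrins are held on the cell surface and bind Eph receptor tyrosine kinases on the neighboring cell, with signaling in both directions. Semaphorins bind plexins, with neuropilins as co-receptors for most of the secreted class 3 semaphorins. Slits bind robos such as ROBO1, and netrins bind DCC, neogenin and the UNC5 receptors.

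The libraries held an estimated 22432671 to 28507235 reads, worked out from steps in the low values. On that estimate 3 reads corresponded to a mean value of 2.83 in parental and 3.16 in resistant libraries. The tuft cell factor *POU2F3* was at 25810 ± 1178 (SD, n = 3) in parental and 27270 ± 536 in resistant cells and did not pass the test. Of the other 5 tuft cell markers *ASCL2*, *AVIL* and *KIT* fell (-0.47, -0.80 and -0.61 on the log2 scale) and *TRPM5* and *CHAT* rose (1.77 and 1.72). The summed value of all 6 was 67116 to 70607 in parental and 54234 to 55268 in resistant libraries. All 5 measured neuroendocrine markers of 7 listed fell, and their summed value was 11396 to 12790 in parental and 4310 to 5005 in resistant libraries. Of 5 fibroblast markers, with sums of 139 to 191 and 380.5 to 622, *COL1A1* and *COL1A2* rose, *COL3A1* was 18.0 ± 7.07 and 10.6 ± 4.33 (-0.73, adjusted p = 0.247), and *DCN* and *PDGFRB* were under the mean of 10. The sums over 5 immune markers were 5.1 to 18.1 over the 6 libraries. The endothelial marker *VWF* rose from 276 ± 54.5 to 465 ± 22.0, while the other 3 endothelial markers were under the mean of 10. Whether these shifts bear on the guidance genes was not tested, and in bulk RNA fewer cells with a transcript and less of it per cell cannot be told apart.

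Of the 59 axon guidance genes tested, 33 (55.9%) passed an adjusted p of 0.05 by limma, beside 37.7% of all 16347 genes tested. There were 14 higher genes (23.7%, beside 17.8% of all genes) and 19 lower genes (32.2%, beside 19.8%). A log2 fold change of at least 1 in size was passed by 17 of them (28.8%, beside 9.95%), 9 higher and 8 lower. Groups were free of overlap for 33 of the 59 (55.9%, beside 49.9% of all genes). The median size of the log2 fold change was 0.49 for the guidance genes and 0.301 for all genes, the spread within groups was also wider (median SD 0.244 against 0.154 on the log2 scale), and the median signed change was -0.06. Genes of these systems thus moved in both directions. Without resistant library 8 the number of higher genes was 9. Fold changes are on the log2(value + 1) scale, resistant minus parental, which understates the change of low genes.

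**Figure D1:**
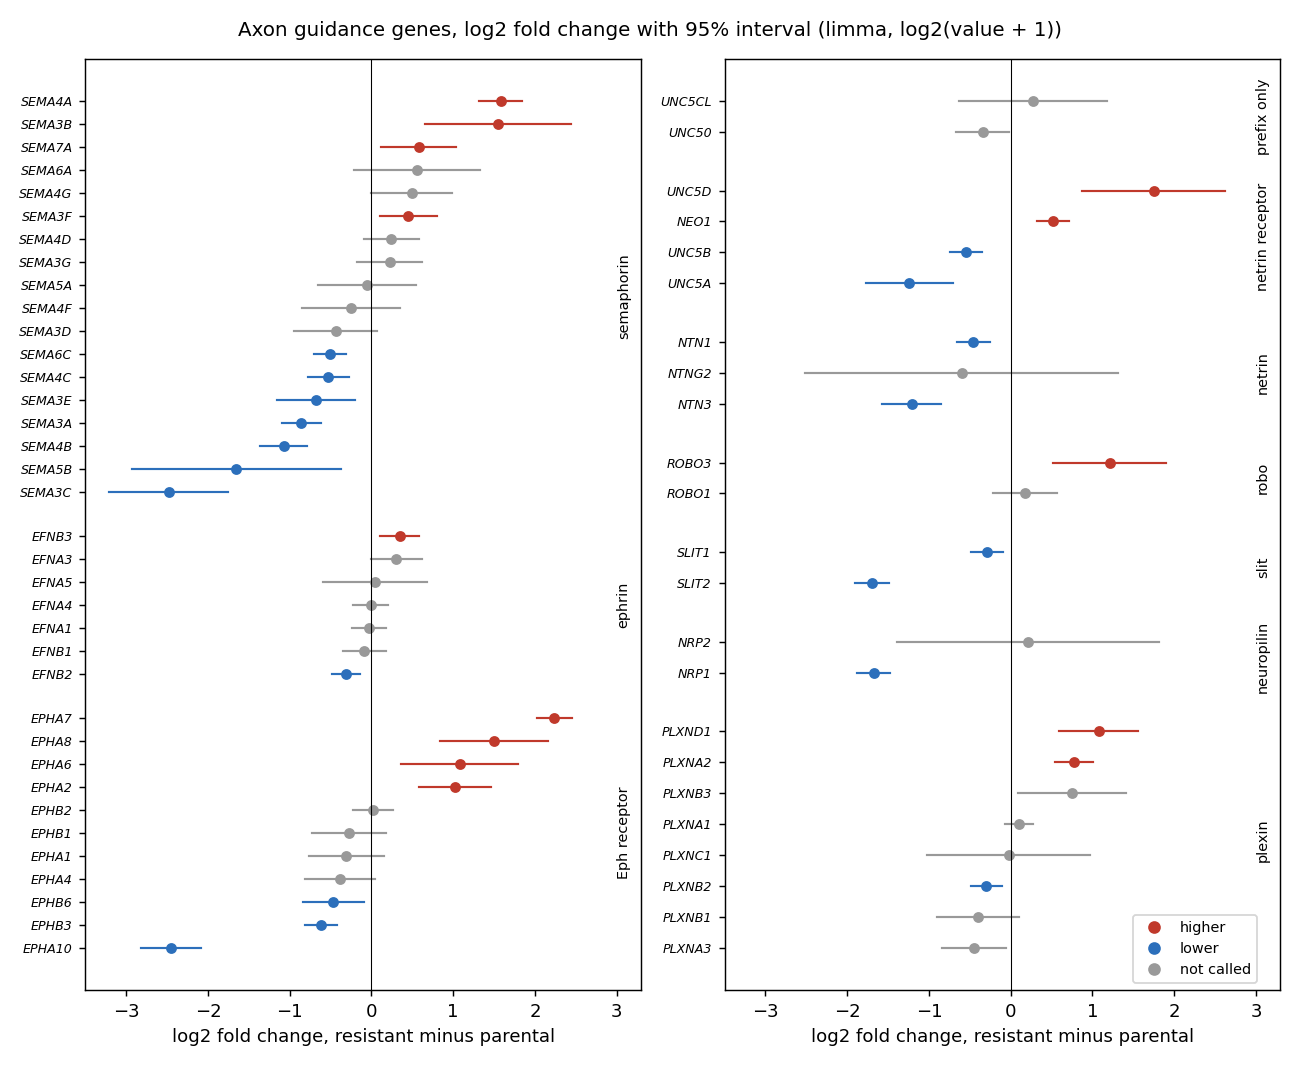
Log2 fold change (x axis, resistant minus parental, log2(value + 1)) of the 59 tested axon guidance genes, ordered by role; points are limma estimates, bars their 95% intervals, and colors mark higher, lower and not called genes at an adjusted p of 0.05. The largest changes were *EPHA7* at 2.24 among the higher genes, and *SEMA3C* at -2.48 and *EPHA10* at -2.45 among the lower genes, while the ephrins stayed between -0.31 and 0.34.

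The upstream sequences of 4 genes with large changes are given first, for the receptor *EPHA7* and the semaphorin *SEMA4A*, which rose, and for the secreted cues *SLIT2* and *SEMA3C*, which fell. Each is the 250 bases before a RefSeq transcript start (GRCh38.p14), written 5′ to 3′ on the strand of the gene. Capitals mark matches, on either strand, to the motifs searched below. *EPHA7* lies on the minus strand (chr6:93419560-93419809), *SEMA4A* on the plus strand (chr1:156149694-156149943), *SLIT2* on the plus strand (chr4:20251655-20251904) and *SEMA3C* on the minus strand (chr7:80922390-80922639).
EPHA7: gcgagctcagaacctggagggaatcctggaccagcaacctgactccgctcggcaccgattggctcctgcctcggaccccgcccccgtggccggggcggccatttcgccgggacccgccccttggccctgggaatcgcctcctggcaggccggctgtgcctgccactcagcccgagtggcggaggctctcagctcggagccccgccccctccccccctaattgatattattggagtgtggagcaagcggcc
SEMA4A: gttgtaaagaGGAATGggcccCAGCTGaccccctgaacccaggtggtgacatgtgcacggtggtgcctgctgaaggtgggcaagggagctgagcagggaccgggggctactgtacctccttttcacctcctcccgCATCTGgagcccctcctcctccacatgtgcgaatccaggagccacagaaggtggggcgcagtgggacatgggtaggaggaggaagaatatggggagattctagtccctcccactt
SLIT2: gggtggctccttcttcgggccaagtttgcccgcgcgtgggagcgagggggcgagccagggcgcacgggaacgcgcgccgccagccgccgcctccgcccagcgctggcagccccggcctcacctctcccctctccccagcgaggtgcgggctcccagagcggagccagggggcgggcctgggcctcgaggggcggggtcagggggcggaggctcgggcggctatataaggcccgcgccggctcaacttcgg
SEMA3C: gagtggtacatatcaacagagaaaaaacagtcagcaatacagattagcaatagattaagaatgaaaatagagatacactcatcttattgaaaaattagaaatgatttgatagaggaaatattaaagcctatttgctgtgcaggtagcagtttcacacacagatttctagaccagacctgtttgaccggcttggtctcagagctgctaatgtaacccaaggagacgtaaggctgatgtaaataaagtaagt

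The 4 stretches differ in base composition. GC content was 77.2% with 30 CpG for *SLIT2* and 69.6% with 19 CpG for *EPHA7*, while *SEMA3C* had 36.4% with 2 CpG. The medians over all 35116 RefSeq promoters of this length were 58.0% and 11 CpG. The *SEMA4A* stretch, at 60.4% with 5 CpG, ends at a RefSeq start that lies 2578 bases from the Gencode start of the gene. It is the only stretch of the 4 with matches, 1 to the TEAD motif and 1 to each of the E-boxes.

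Eph receptors are named A or B for the class of ephrin they bind. Of the 11 tested, 63.6% passed the test, beside 37.7% of all genes. A log2 fold change of at least 1 in size was passed by 45.5%, beside 9.95% of all genes. Among the A receptors, 4 of 7 tested rose and 1 fell, all by a log2 fold change of at least 1 in size. Of the 4 tested B receptors none rose and 2 fell, by less than that. Both classes are small, and the A and B receptors were not compared by a test.

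*EPHA7* (ENSG00000135333, chr6:93240020-93419687), a receptor for the A ephrins known from patterning of the brain, held 546, 658 and 622 in parental libraries 1, 2 and 3 and 2676, 2792 and 3162 in resistant libraries 7, 8 and 9. The lowest resistant library was far above the highest parental one. The mean rose 4.72-fold, from 609 ± 57.1 (SD, n = 3) to 2877 ± 254, a log2 fold change of 2.24 with a standard error of 0.10 (adjusted p = 2.93e-07, limma).

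*EPHA8* (ENSG00000070886), a further A receptor, held 44.7, 81.0 and 40.6 in parental and 112, 170 and 181 in resistant libraries. *EPHA2* (ENSG00000142627), the A receptor best known from epithelial cells and carcinomas, held 254, 475 and 322 against 601, 716 and 761. *EPHA6* (ENSG00000080224) was low, with 24.5, 16.8 and 33.7 against 42.2, 57.5 and 57.7. In each of these the groups did not overlap. The log2 fold changes were 1.50 (95% interval 0.84 to 2.16, adjusted p = 0.00291), 1.02 (0.58 to 1.47, adjusted p = 0.00274) and 1.08 (0.36 to 1.80, adjusted p = 0.0243). The call of *EPHA6* was lost without parental library 1 or 2 or resistant library 8 or 9, with adjusted p from 0.0514 to 0.0837.

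*EPHA10* (ENSG00000183317, chr1:37713880-37765133), an A receptor whose kinase domain is held to be inactive, held 575, 658 and 478 in parental and 89.0, 104 and 118 in resistant libraries. All resistant libraries were thus below every parental one. The mean fell 5.51-fold, from 569.9 ± 90.1 to 103 ± 14.3, a log2 fold change of -2.45 (95% interval -2.81 to -2.08, adjusted p = 3.94e-06). *EPHA4* (-0.38, interval -0.81 to 0.05) and *EPHA1* (-0.31, interval -0.76 to 0.15) did not pass the test.

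*EPHB3* (ENSG00000182580), a receptor for the B ephrins, was the most abundant Eph receptor, with 6992, 7125 and 8642 in parental and 4597, 4894 and 5323 in resistant libraries. Its groups did not overlap, and it fell by 0.62 on the log2 scale (standard error 0.09, adjusted p = 0.000492). *EPHB6*, which also lacks kinase activity, fell from 206 ± 29.4 to 148 ± 15.4 at the edge of the threshold (adjusted p = 0.0499). That call was lost without any one library except parental 3 (adjusted p 0.0503 to 0.145) and after centring on neighboring genes (log2 fold change -0.17). *EPHB2*, at 774 ± 33.9 and 787 ± 113, differed by 0.01 (interval -0.23 to 0.26), and *EPHB1* by -0.28 (interval -0.73 to 0.18).

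Levels are compared between genes per kb of the longest annotated transcript, so places within a role depend on that choice. On this scale *EPHB3* stood at 1792 ± 216.5 in parental cells and 1166 ± 86.2 in resistant cells. That was 76.0% and 58.6% of the summed level of the 11 Eph receptors. *EPHA7* moved from place 5 to place 2, from 76.0 ± 7.13 (3.22%) to 359 ± 31.7 (18.0%), and *EPHA10* from place 2 to place 9, from 104 ± 16.5 to 18.9 ± 2.61. *EPHA2* followed *EPHA7* in resistant cells, at 175.5 ± 20.9. In parental cells the levels of *EPHA10*, *EPHA1* (102 ± 34.4), *EPHA2* (88.7 ± 28.6) and *EPHA7* did not differ beyond their spread between neighbors in that order.

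Of 7 ephrins tested, *EFNB3* rose and *EFNB2* fell (28.6%, beside 37.7% of all genes), both by under 0.35 on the log2 scale, and none of the 4 tested A ephrins, which are held by a lipid anchor, passed the test. *EFNA1*, the most abundant ephrin per kb, held 1749, 1675 and 1546 in parental and 1609, 1455 and 1829.6 in resistant libraries, and the groups overlapped (log2 fold change -0.03, interval -0.24 to 0.18). *EFNA3* held 978, 1498 and 1081 against 1317, 1551 and 1463 (0.30, interval -0.01 to 0.62), and passed the test without parental library 2 (0.49, adjusted p = 0.00515). *EFNA4* held 591, 660.0 and 671 against 638, 597 and 671 (-0.01, interval -0.23 to 0.20). *EFNA5* differed by 0.04 with a wide interval (-0.59 to 0.68).

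The B ephrins span the membrane and signal into their own cell. *EFNB3* held 487, 552 and 457 in parental and 586.5, 669 and 642 in resistant libraries, without overlap (log2 fold change 0.34, adjusted p = 0.0289). This call was lost without parental library 1 or 3 or resistant library 8 or 9 (adjusted p 0.0663 to 0.107). *EFNB2*, a ligand of vessels and neural crest, fell from 1669.5 ± 56.5 to 1347 ± 95.6 (-0.31, adjusted p = 0.0102). *EFNB1* was 562 ± 9.46 and 533 ± 73.5 (-0.09, interval -0.35 to 0.17). The levels per kb of all 7 ephrins summed to 2933 in parental and 3025 in resistant cells, beside 2359 and 1991 for the Eph receptors.

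**Figure D2:**
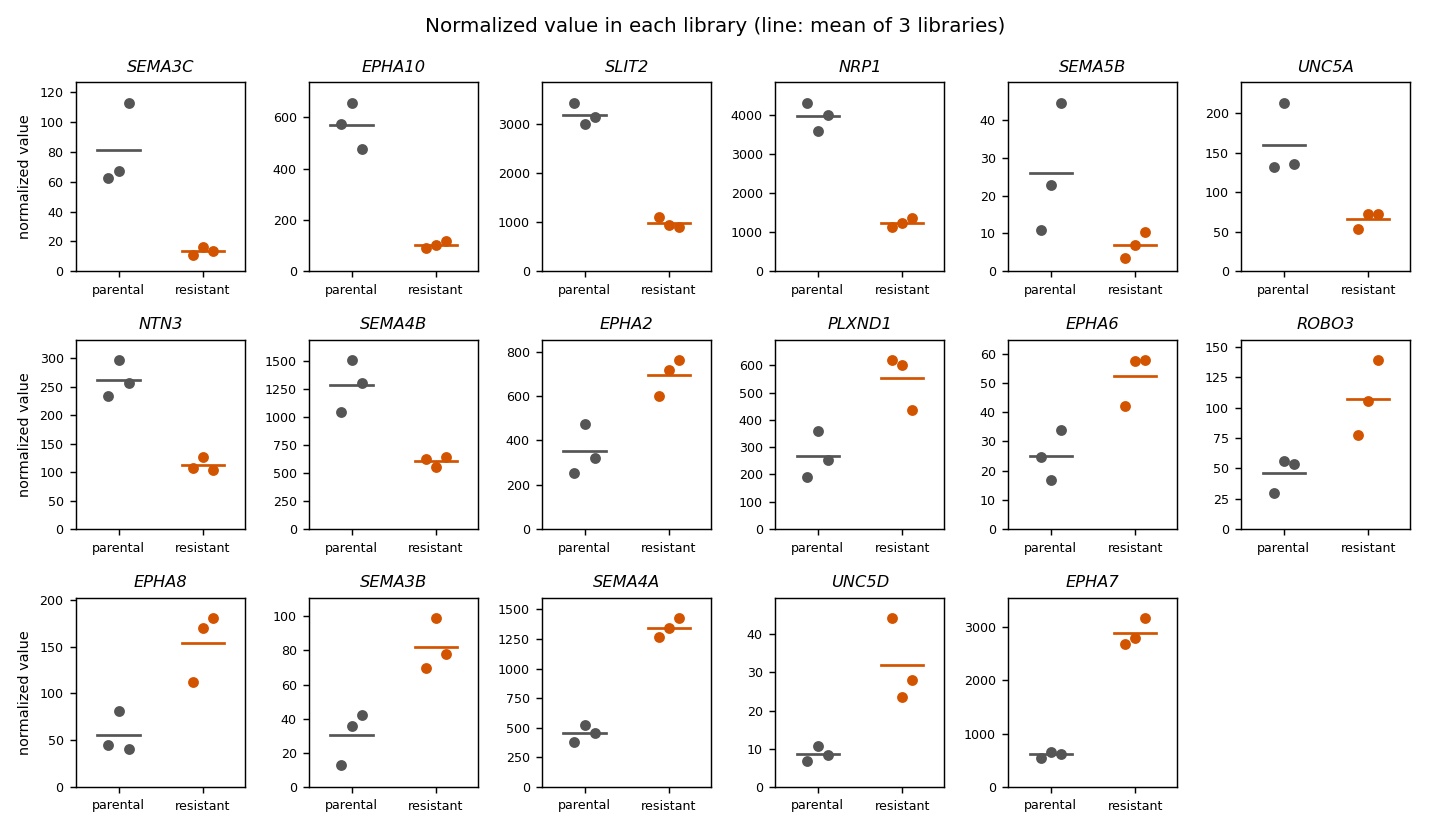
Normalized value (y axis, from 0, linear, a scale of its own in each panel) in each of the 3 parental and 3 resistant libraries for the 17 axon guidance genes with a log2 fold change of at least 1 in size and an adjusted p under 0.05; lines are group means. In all 17 panels the 3 points of one group lie above the 3 points of the other, closest together for *SEMA5B*, with 10.8 in the lowest parental and 10.5 in the highest resistant library.

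Semaphorins of class 3 are secreted, those of classes 4 to 6 span the membrane and *SEMA7A* is held by a lipid anchor. Of 18 tested, 4 rose (22.2%, beside 17.8% of all genes), 7 fell (38.9%, beside 19.8%) and 7 did not pass the test. Semaphorins of either direction thus made up 61.1%, beside 37.7% of all genes. In class 3, 2 rose and 3 fell among 7 tested, and in class 4, 1 rose and 2 fell among 6. The classes hold few genes and were not compared by a test.

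*SEMA4A* (ENSG00000196189, chr1:156147366-156177752), known from T cells and the retina, held 379, 523 and 456 in parental and 1268, 1342 and 1426 in resistant libraries. The groups were well apart, and the mean rose 2.97-fold, from 453 ± 72.3 to 1345 ± 78.9 (log2 fold change 1.58, standard error 0.12, adjusted p = 8.36e-06). *SEMA3B* (ENSG00000012171), which lies in a part of 3p often lost in lung cancer, was low, with 13.1, 35.8 and 41.9 against 69.8, 98.9 and 77.8. It rose by 1.55 (interval 0.66 to 2.44, adjusted p = 0.0124), though without resistant library 8 the adjusted p was 0.0526.

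*SEMA3F*, its neighbor on 3p, rose by 0.45 with overlapping groups (434.7 ± 96.3 and 587.5 ± 71.8, adjusted p = 0.0448). Without parental library 1 or 3 or any one resistant library the call was lost (adjusted p 0.0576 to 0.146). *SEMA7A*, a ligand of plexin C1, rose from 218 ± 61.4 to 317 ± 27.5 (0.58, adjusted p = 0.0482). That call held only without parental library 2 among the 6 omissions (adjusted p 0.0588 to 0.131 in the others), and the change was 0.32 without parental library 1 and 0.15 after centring on neighboring genes.

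*SEMA3C* (ENSG00000075223, chr7:80742538-80922359), a class 3 cue of heart outflow tract and of several carcinomas, held 62.7, 67.5 and 113 in parental and 10.6, 15.9 and 13.7 in resistant libraries. The highest resistant library was under the lowest parental one by several times. The mean fell 6.05-fold, from 81.1 ± 27.8 to 13.4 ± 2.66, a log2 fold change of -2.48 (interval -3.21 to -1.75, adjusted p = 0.000269). *SEMA3A* (ENSG00000075213), the classic repellent of sensory axons, held 551, 536 and 607 against 300.01, 315 and 319. It fell 1.81-fold without overlap (-0.86, standard error 0.10, adjusted p = 0.000168), and by 0.53 on the log2 scale after centring on neighboring genes.

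*SEMA3E*, the ligand of plexin D1, fell from 144 ± 13.7 to 91.5 ± 24.0 (-0.68, adjusted p = 0.0319), a call lost without any one library except resistant 9 (adjusted p 0.0532 to 0.112) and after centring on neighboring genes (-0.35). *SEMA3D* (-0.44, interval -0.94 to 0.07) and *SEMA3G* (0.22, interval -0.18 to 0.62) did not pass. Their groups overlapped.

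*SEMA4B* (ENSG00000185033), a membrane-bound semaphorin, held 1049, 1508 and 1307 in parental and 627.5, 550.4 and 641 in resistant libraries. It fell 2.12-fold without overlap (log2 fold change -1.07, interval -1.36 to -0.79, adjusted p = 0.000153), and by 0.48 after centring on its neighbors. *SEMA5B* (ENSG00000082684) was near the limit of the measurement, with 10.8, 22.9 and 44.6 against 3.53, 6.94 and 10.5. It fell by 1.65 with a wide interval (-2.93 to -0.38, adjusted p = 0.0444). The call was lost without parental library 2 or 3 or resistant library 7 or 8 (adjusted p 0.0886 to 0.178).

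*SEMA6C*, the most abundant semaphorin per kb in parental cells, held 2509, 2599 and 2349.7 in parental and 1564, 1761 and 1947 in resistant libraries and fell by 0.50 (adjusted p = 0.00145). *SEMA4C*, a ligand of plexin B2, held 1032, 1066 and 1113 against 629, 764 and 852 and fell by 0.53 (adjusted p = 0.00452). Neither had overlapping groups. *SEMA6A* (0.56), *SEMA4G* (0.49), *SEMA4D* (0.24), *SEMA5A* (-0.06) and *SEMA4F* (-0.25) did not pass the test. Without parental library 2 *SEMA4G* did (0.74, adjusted p = 0.0142), and without resistant library 9 so did *SEMA4F* (-0.59, adjusted p = 0.0433). Exons of *SEMA4G* share 22.9% of their bases with *MRPL43* on the other strand, and the kit did not mark strand.

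The order of the semaphorins changed at the top. In parental cells *SEMA6C* led with 472 ± 24.0 per kb, followed by *SEMA4B* at 341 ± 60.8 and *SEMA4C* at 283 ± 10.8, and the last pair did not differ beyond their spread. In resistant cells *SEMA4A* led with 414 ± 24.3 per kb, from 139 ± 22.2 in parental cells, and *SEMA6C* followed with 334 ± 36.4. The summed level of the 18 semaphorins was 1807 and 1743.5 per kb.

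Plexins carry the semaphorin signal across the membrane through a GTPase-activating domain for small Ras-like GTPases. Of 8 tested, 2 rose, 1 fell and 5 did not pass, so that 37.5% passed, near the 37.7% of all genes. *PLXND1* (ENSG00000004399), known from vessel growth, held 192, 358 and 252 in parental and 618, 603 and 436 in resistant libraries. The groups did not overlap, and it rose by 1.07 (interval 0.59 to 1.56, adjusted p = 0.00345). *PLXNA2*, a partner of class 6 semaphorins and of neuropilins, rose 1.71-fold from 394 ± 21.4 to 676 ± 50.1 (0.77, adjusted p = 0.000269).

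*PLXNB2* was the most abundant plexin per kb in both groups, with 4990 in parental library 1, 6066 and 5232 in the others and 4168, 4242 and 4825 in resistant libraries. It fell by 0.30 (adjusted p = 0.0217), a call lost without parental library 2 or resistant library 7 or 8 (adjusted p 0.0699 to 0.0769) and after centring on neighboring genes (-0.19). *PLXNA1* held 3716, 4040.5 and 4196 against 4243.5, 4655 and 3955 and differed by 0.10 (interval -0.07 to 0.28). *PLXNB1*, the receptor of *SEMA4D*, held 1693, 2672 and 2406 against 1363, 2479.5 and 1391, and resistant library 8 stood apart from the other two. Its change was -0.40 (interval -0.91 to 0.10) with all libraries and -0.69 without resistant library 8 (adjusted p = 0.0138). *PLXNA3* (-0.45, adjusted p = 0.0703) and *PLXNB3* (0.75, adjusted p = 0.0701) passed without resistant library 9 (-0.68, adjusted p = 0.00206) and resistant library 7 (0.99, adjusted p = 0.0336), respectively. *PLXNC1*, at 15.6 ± 6.30 and 14.9 ± 4.14, differed by -0.02 (interval -1.02 to 0.97).

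*NRP1* (ENSG00000099250, chr10:33177492-33336262), the co-receptor of class 3 semaphorins and of VEGF, held 4332, 3592 and 4002 in parental and 1148, 1225 and 1363 in resistant libraries. Every resistant library was below every parental one. The mean fell 3.19-fold, from 3975 ± 370.3 to 1245 ± 109 (log2 fold change -1.67, standard error 0.09, adjusted p = 1.15e-06). *NRP2* was low, with 18.9, 5.80 and 12.4 against 7.11, 6.38 and 45.4, and 1 resistant library set its mean (0.21, interval -1.40 to 1.81). Per kb *NRP1* made up 99.7% of the neuropilin level in parental and 98.6% in resistant cells, 676 ± 63.0 and 212 ± 18.5.

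Slits are large secreted proteins that repel axons and migrating cells through robos such as ROBO1. *SLIT2* (ENSG00000145147, chr4:20251905-20620561) held 3440, 3001 and 3139 in parental and 1109, 952 and 892 in resistant libraries. The groups were far apart, and the mean fell 3.24-fold, from 3193 ± 225 to 984 ± 112 (log2 fold change -1.70, standard error 0.09, adjusted p = 1.32e-06). *SLIT1* held 1258, 1366.5 and 1182 against 961, 1072 and 1090.4 and fell by 0.28 (adjusted p = 0.0276). That call was lost without parental library 1 or 2 or resistant library 7 or 8 (adjusted p 0.0502 to 0.0995). It was also lost with limma without the trend and with quantile normalization.

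*SLIT2* was above *SLIT1* per kb in parental cells, 397 ± 27.9 against 159 ± 11.6. In resistant cells the levels were 122 ± 13.9 and 131 ± 8.80 and did not differ beyond their spread. Of the robos, *ROBO3* (ENSG00000154134), which acts in commissural axons, held 29.4, 56.2 and 53.4 in parental and 77.4, 105 and 139 in resistant libraries. It rose by 1.21 without overlap (interval 0.52 to 1.90, adjusted p = 0.0119). *ROBO1*, the main slit receptor measured here, held 463, 481 and 749 against 550.1, 634 and 689, and parental library 3 was the highest of all. It differed by 0.18 (interval -0.21 to 0.56), and by 0.40 without that library (adjusted p = 0.0455).

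Netrins are secreted relatives of laminins. *NTN1*, which attracts axons through *DCC* and repels them through UNC5 receptors, held 1323, 1544 and 1431.5 in parental and 1024, 970.5 and 1137 in resistant libraries, without overlap. It fell by 0.46 (adjusted p = 0.00304). *NTN3* (ENSG00000162068) held 234, 297 and 256 against 108, 127 and 103, and all resistant libraries were below the parental ones. It fell 2.33-fold (log2 fold change -1.21, interval -1.57 to -0.85, adjusted p = 0.000289). *NTNG2*, a membrane-anchored netrin, held 31.9, 11.8 and 16.3 in parental and 1.65, 40.6 and 18.0 in resistant libraries. It thus scattered widely within the resistant libraries alone (-0.60, interval -2.51 to 1.32).

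All 4 tested netrin receptors passed the test (beside 37.7% of all genes), 2 in each direction. *NEO1* (neogenin, also the receptor of the RGM proteins) held 1885, 1984 and 1895.5 in parental and 2407, 2916 and 2954 in resistant libraries. It rose by 0.52 without overlap (adjusted p = 0.00113), and by 0.14 after centring on its neighbors (adjusted p = 0.296). *UNC5D* (ENSG00000156687) was low, with 6.74, 10.8 and 8.32 against 44.2, 23.6 and 28.0, and rose by 1.75 (interval 0.87 to 2.63, adjusted p = 0.00623), or 1.15 with a pseudocount of 10. *UNC5B* held 1135, 1079 and 1103 against 757, 699.6 and 816 and fell by 0.55 (adjusted p = 0.00078). *UNC5A* (ENSG00000113763) held 132, 213 and 135 against 53.6, 72.6 and 72.1 and fell 2.42-fold (log2 fold change -1.24, interval -1.77 to -0.71, adjusted p = 0.00256). Both had no overlap between groups.

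*NEO1* was the most abundant of the 4 per kb, at 262 ± 7.42 in parental and 376 ± 41.6 in resistant cells, above *UNC5B* at 162 ± 4.08 and 111 ± 8.51. *DCC* itself was under the mean of 10. Of the genes taken in by prefix alone, *UNC50*, a protein of the inner nuclear membrane and Golgi, was 280.3 ± 23.4 and 221.5 ± 29.7 without overlap (-0.34, adjusted p = 0.0896), and *UNC5CL* differed by 0.27 (interval -0.63 to 1.18). *UNC5CL* was low, at means of 18.6 and 21.3, and its exons share 23.7% of their bases with *OARD1* on the same strand. *OARD1* had means of 401 in parental and 437 in resistant cells, and the part of the *UNC5CL* value that comes from shared bases was not tested.

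**Figure D3:**
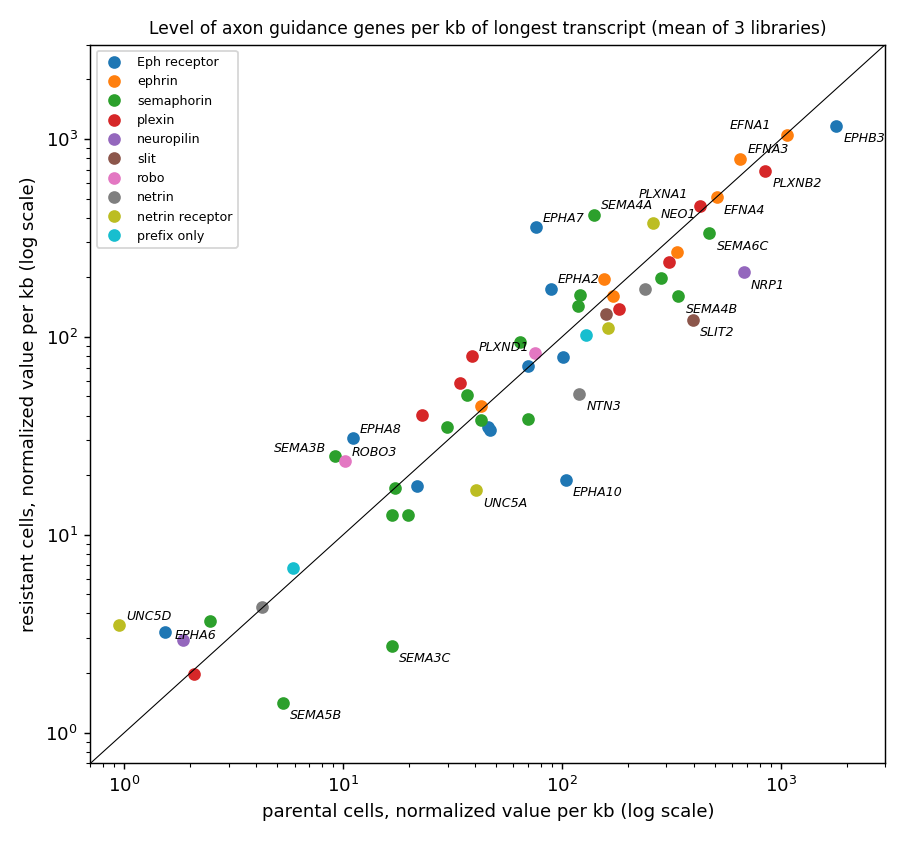
Mean normalized value of 3 libraries per kb of the longest transcript (both axes logarithmic, parental on x, resistant on y) for the 59 tested axon guidance genes, colored by role, with the line of equal level. *EPHB3* and *EFNA1* stand highest in both groups, *NRP1* and *SLIT2* lie well under the line among the abundant genes and *EPHA7* and *SEMA4A* well above it.

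The 16 genes under the mean of 10 were *EPHA3*, *EPHA5*, *EPHB4*, *EFNA2*, the read-through gene *EFNA4-EFNA3*, *SEMA6B*, *SEMA6D*, *PLXNA4*, *SLIT3*, *ROBO2*, *ROBO4*, *NTN4*, *NTN5*, *NTNG1*, *DCC* and *UNC5C*. Of these, 8 were at or under 3 reads in all 6 libraries, and *PLXNA4* and *ROBO4* were listed at 0 in all. Just outside the threshold was *SEMA6D*, with a mean of 9.98 and a highest value of 38.0 in resistant library 8. *SLIT3* was 1.84, 0 and 0 in parental and 6.47, 12.5 and 7.80 in resistant libraries. *PLXNC1*, *NRP2* and *SEMA5B* lay just inside it.

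The neighbors of each gene on its chromosome were compared, as the median log2 fold change of the 50 nearest tested genes. This median was beyond 0.3 in size for 10 of all 59 tested members, whether they passed the test or not. For 27 of the 33 guidance genes that passed the test it lay between -0.3 and 0.3. It was -0.00 for *EPHA7*, 0.01 for *SEMA4A*, 0.06 for *NRP1* and for *SLIT2* and 0.08 for *EPHA10*. The other 6 moved the same way as their surroundings, *SEMA3C* (neighbors -0.35), *SEMA3A* (-0.36), *SEMA3E* (-0.36) and *SEMA4B* (-0.62) among the lower genes and *NEO1* (0.38) and *SEMA7A* (0.40) among the higher.

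Members close together on a chromosome moved alike in some places and not in others. On chromosome 7 *SEMA3C*, *SEMA3E*, *SEMA3A* and *SEMA3D* lie within a few megabases and all had negative changes, the first 3 past the test. *SEMA3F* and *SEMA3B*, 78.5 kb apart, both rose. *EPHA8* rose by 1.50 while *EPHB2*, 107 kb away, differed by 0.01. *EFNA4*, *EFNA3* and *EFNA1* form a cluster on chromosome 1 in which none passed the test, and *SEMA4A*, 1010 kb beyond *EFNA1*, rose by 1.58.

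**Figure D4:**
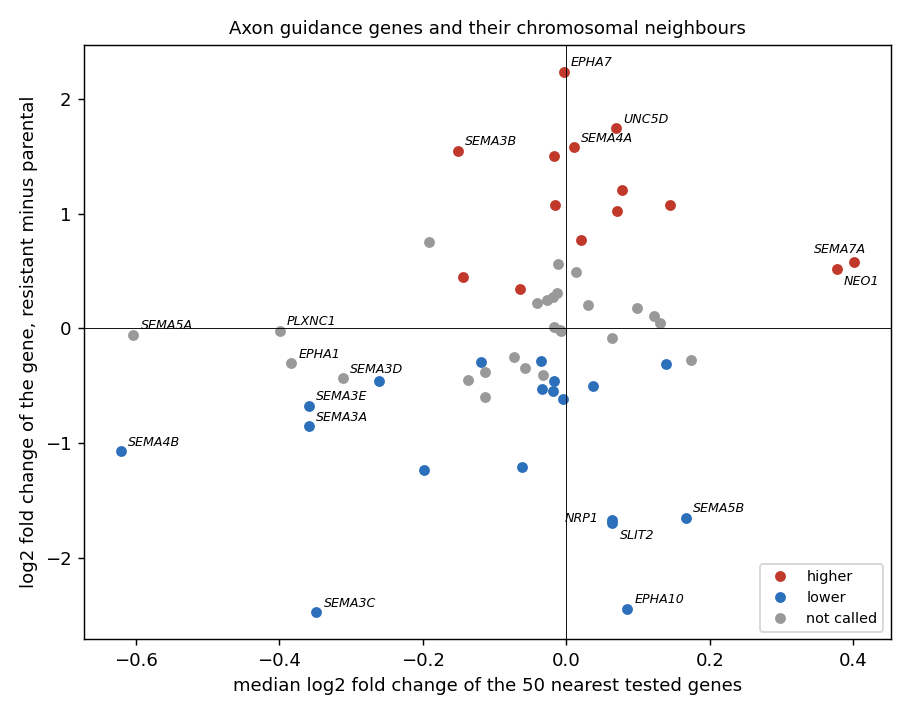
Log2 fold change of each of the 59 tested axon guidance genes (y axis, resistant minus parental) against the median log2 fold change of its 50 nearest tested genes (x axis); colors mark the call. *EPHA7*, *SEMA4A*, *NRP1*, *SLIT2* and *EPHA10* lie near 0 on the x axis, and *SEMA4B*, *NEO1* and *SEMA7A* lie at its ends among the genes that passed the test.

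RefSeq promoter windows of 300 bases, 250 before and 50 after the start, were found for 49 of the 59 tested genes and for 13 of the 17 with large changes, the latter with 30 windows. The octamer ATGCAAAT, the site of POU factors such as POU2F3, was in none of the 30 and in 1.77% of all 35116 windows. The E-box CAGCTG was in 8 of 30 (17.9% of all), from *EPHA6*, *ROBO3*, *SEMA3B*, *SEMA4A*, *SEMA4B* and *SEMA5B*. CATCTG was in 6 of 30 (14.7% of all) and the TEAD motif GGAATG in 6 of 30 (14.0% of all). Windows of one gene overlap, so they are not independent, and a match is a description of the letters only.

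Other parts of the pathway were counted by lists. Of 24 co-receptors and further cues 16 were tested, with 1 higher and 4 lower (31.2%, under the 37.7% of all genes, with a median log2 fold change of 0.09). *PRTG*, a relative of *DCC*, rose from 55.0 ± 11.4 to 128 ± 40.6 (1.17, adjusted p = 0.00829), and the adhesion molecule *L1CAM* fell from 83.0 ± 46.4 to 20.6 ± 6.82 (-1.84, adjusted p = 0.00713). *RGMA*, a ligand of *NEO1*, fell by 0.55, *DSCAML1* by 0.88 and the myelin inhibitor *RTN4* by 0.26.

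Of 60 signal transducers 59 were tested, with 9 higher and 17 lower (44.1%, beside 37.7% of all genes; median -0.07), and 11.9% passed with a log2 fold change of at least 1 in size (9.95% of all genes). These shares are near those of all genes. *DOCK1*, an exchange factor for Rac, was 112, 74.1 and 103 in parental libraries and listed at 0 in all 3 resistant libraries, at least 30.6-fold lower against the mean value of 3 reads there. *DPYSL4* and *CRMP1*, of the family that carries the semaphorin 3A signal to microtubules, fell by 2.51 and 1.20. In the same family *DPYSL5* fell by 0.48 and *DPYSL2* did not pass the test (0.11). *DPYSL3*, the most abundant of them, rose by 0.21, from 62620 ± 2330 to 72490 ± 1594 (adjusted p = 0.016, limma). The neuronal tubulin *TUBB3* fell by 2.38. The kinase *PAK3* (1.26) and the exchange factors *TIAM1* (1.04) and *ARHGEF11* (1.04), the last a partner of plexin B receptors, rose. Of 14 genes for shedding and turnover 11 were tested, with 4 higher and 4 lower (72.7%, beside 37.7% of all genes), all of them by less than 1 in size on the log2 scale, among them the γ-secretase subunits *PSENEN* (-0.83) and *APH1B* (0.68).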

How the data were processed

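RNA of 3 parental and 3 onvansertib-resistant H526 libraries, made with an unstranded kit, was compared. The authors trimmed reads with Trimmomatic 0.38, aligned and quantified them with STAR and RSEM 1.3.1 on GRCh38 with Gencode v43, and deposited a normalized signal per gene and library, scaled with DESeq2 1.30.0, with no filter on low values. Steps in the low values gave the estimated depths (22432671 to 28507235 reads). Between 29.9% and 59.7% of low values were whole reads within 0.02 reads, so the reads behind single genes stayed unknown and count models were not used. Limits of 3 reads cover counting error only.

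Of 62757 rows, 47 second pseudoautosomal copies were dropped, and 62639 of the remaining 62710 matched Gencode v44, which gave symbols, positions and longest transcripts. Genes with a mean of at least 10 entered limma 3.58.1 in R 4.3.3 as log2(value + 1) (lmFit, eBayes with trend, a term for condition) with Benjamini-Hochberg adjustment over all 16347 genes. Intervals are 95%. The exact two-sided permutation test of single genes, 3 against 3, cannot go below p = 0.1, its value for every gene without overlap. Scripts were tested on simulated data. Promoters came from RefSeq (GRCh38.p14). Summaries used Python 3.11.15, numpy 2.4.6, pandas 2.3.3 and matplotlib 3.10.9.

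Values per library are given for genes past the test with a log2 fold change of at least 1 in size and for the 3 with the highest level per kb in each role, with neighbors described for genes that passed. The members and lists were chosen with earlier results of these data known. Other settings tried were a minimum mean of 50 or none, a pseudocount of 0.1 or 10, median-ratio rescaling, quantile normalization, limma without the trend, centring on the local median of neighboring genes, and each library left out in turn.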

Additional observations from a re-analysis of the deposited data

How the results depend on the processing

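No direction reversed among the 33 axon guidance genes that passed the test under the 14 alternatives. Of these, 22 passed under every alternative that tested them, including 14 of the 17 with a log2 fold change of at least 1 in size, and *EPHA6*, *SEMA3B* and *SEMA5B* were the exceptions among those. The number of higher genes, 14, was 11 to 14 under the other settings and 9 (without resistant library 8) to 15 with a library left out. The number of lower genes, 19, was 15 to 19 and 14 to 20, and the number over all genes, 6161, was 5072 to 6228 and 4784 to 5618. With a library left out fewer samples enter the fit. In limma without the trend the calls of *EFNB3*, *EPHB6*, *PLXNB2*, *SEMA3F*, *SEMA5B*, *SEMA7A* and *SLIT1* were lost. With no minimum mean 73 members were tested and 13 were higher, some of them genes under the mean of 10. In that setting the calls of *EPHA6*, *EPHB6*, *SEMA3F*, *SEMA5B* and *SEMA7A* were lost. With quantile normalization the calls of *EPHA6*, *PLXNB2* and *SLIT1* were lost. The call of *EPHB6* was also lost after median-ratio rescaling and with a pseudocount of 10, and that of *SEMA7A* with a pseudocount of 0.1. For the calls lost after centring on neighboring genes (*EPHB6*, *NEO1*, *PLXNB2*, *SEMA3E* and *SEMA7A*) the cause was not tested, and the same centring moved *EFNB2* to -0.51. A pseudocount of 10 moved *SEMA5B* to -0.997. Of the genes that did not pass, 7 did so under at least 1 alternative, and 11 others changed sign under at least 1 without passing. Quantile normalization gave 0.0259 for *EFNA1* and 0.0282 for *EFNA4*. Centring on neighboring genes gave -0.0634 for *EFNA5*, 0.0495 for *EPHA1*, -0.0055 for *EPHB2*, -0.0106 for *PLXNA1*, 0.43 for *PLXNC1* and 0.54 for *SEMA5A*, and the cause was not tested. With a library left out the changes ran from -0.113 to 0.0522 for *EFNA1*, -0.0681 to 0.0326 for *EFNA4*, -0.17 to 0.37 for *EFNA5*, -0.149 to 0.0344 for *EFNB1*, -0.0989 to 0.0928 for *EPHB2*, -0.66 to 0.67 for *NRP2*, -1.45 to 0.54 for *NTNG2*, -0.38 to 0.22 for *PLXNC1* and -0.36 to 0.22 for *SEMA5A*. *EPHA6*, *SEMA3C*, *SEMA5B* and *UNC5D* were not tested at a minimum mean of 50. Depth limits genes with few reads, such as *NRP2*, *NTNG2* and *SEMA5B*. No paired analysis was run, because the groups share no replicate number and the labels name no pairs. The paper calls the parental and resistant cells matched but does not say which libraries belong together.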
